A study of Mus musculus with 8 samples.

Results

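The genes described here are 48 proliferation and DNA replication genes, from the G1 cyclins to the proteins of the mitotic spindle, chosen by symbol from the gene names of the array. Their levels were read in the mouse line C2C12, whose myoblasts stop dividing and fuse into myotubes once serum is taken away. RNA was taken on day 4 of differentiation from cells given an siRNA against macroH2A1.1, which is made by alternative splicing of the gene for a histone H2A variant, and from cells given a control siRNA, with 4 samples in each group. A further label of the macroH2A1.1 siRNA samples calls them a knockout, and the siRNA named in their titles was followed here. All samples share the cell line, the day and the absence of any other stated treatment, and the labels give neither the siRNA sequence nor its dose. The replicates are called biological, but nothing says how the cultures were made, so the p-values below speak of these samples only. Without replicate number in the model, they are set against the spread within each siRNA group. With it, they are set against how far same-numbered pairs of samples disagree. Each sample was hybridised to a single 1-colour array. Levels are log2 intensities relative to the array's 75th percentile, so a difference of 1 is a 2-fold change, and they compare samples for a gene but not genes with each other. Of the 48 members 44 were measured, among 13824 genes measured in all.

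Cells that divide pass through a fixed order of steps. In G1, D-type cyclins with Cdk4 or Cdk6 and cyclin E with Cdk2 inactivate the retinoblastoma family of pocket proteins and so release E2F transcription factors, whose targets include the genes that license and copy DNA. Later in the cycle Mybl2 and Foxm1 act with the MuvB core complex at promoter elements named CHR, beside CCAAT boxes bound by NF-Y, and turn on the genes of G2 and mitosis. In resting cells the same core joins a pocket protein and an E2F in the DREAM complex, which represses these genes. Myoblasts leave the cycle when they differentiate, and in C2C12 cultures mononucleated reserve cells, able to divide again, stay beside the myotubes.

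The promoters of the members were read from a RefSeq table (GRCm38.p6), which holds the 250 bases before and the 50 bases after the start of each gene and had an entry for 37 of the 48 members (40 windows). Printed here, among measured members with an entry, are the 3 with the lowest and the 3 with the highest level in replicate 4 relative to replicate 2, the contrast that separated mitotic from replication genes. Capitals mark 3 motifs searched on both strands. They are the CCAAT box (CCAAT), the CHR (TTTGAA) and E2F sites (TTTCCCGC, TTTCGCGC, TTTGCCGC or TTTGGCGC). In 3 of the 40 windows 2 matches overlapped.
Ccnb2 promoter: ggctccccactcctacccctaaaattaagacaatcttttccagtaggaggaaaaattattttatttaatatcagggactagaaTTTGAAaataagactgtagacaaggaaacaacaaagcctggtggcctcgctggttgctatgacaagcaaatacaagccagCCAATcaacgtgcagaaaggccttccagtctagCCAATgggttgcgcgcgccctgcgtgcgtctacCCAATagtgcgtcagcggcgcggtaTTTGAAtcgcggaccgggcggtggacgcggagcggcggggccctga
Cenpe promoter: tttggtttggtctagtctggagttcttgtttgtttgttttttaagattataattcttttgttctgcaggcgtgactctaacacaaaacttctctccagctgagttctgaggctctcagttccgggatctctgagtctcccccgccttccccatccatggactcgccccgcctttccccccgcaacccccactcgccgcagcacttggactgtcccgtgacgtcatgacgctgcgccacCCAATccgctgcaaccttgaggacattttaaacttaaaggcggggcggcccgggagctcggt
Ccnb1 promoter: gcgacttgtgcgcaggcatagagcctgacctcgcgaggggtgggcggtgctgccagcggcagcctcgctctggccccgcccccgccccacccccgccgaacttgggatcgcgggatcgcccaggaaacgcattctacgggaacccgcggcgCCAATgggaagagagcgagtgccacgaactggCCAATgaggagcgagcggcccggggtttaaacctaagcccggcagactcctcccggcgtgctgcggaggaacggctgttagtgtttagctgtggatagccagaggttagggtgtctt
Mcm3 promoter: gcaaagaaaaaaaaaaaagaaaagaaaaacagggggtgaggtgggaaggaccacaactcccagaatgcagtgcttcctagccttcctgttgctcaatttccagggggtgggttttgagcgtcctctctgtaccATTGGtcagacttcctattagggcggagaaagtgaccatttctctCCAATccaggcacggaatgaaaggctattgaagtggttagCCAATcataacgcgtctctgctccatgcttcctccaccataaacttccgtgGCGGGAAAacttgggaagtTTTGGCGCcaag
Mcm6 promoter: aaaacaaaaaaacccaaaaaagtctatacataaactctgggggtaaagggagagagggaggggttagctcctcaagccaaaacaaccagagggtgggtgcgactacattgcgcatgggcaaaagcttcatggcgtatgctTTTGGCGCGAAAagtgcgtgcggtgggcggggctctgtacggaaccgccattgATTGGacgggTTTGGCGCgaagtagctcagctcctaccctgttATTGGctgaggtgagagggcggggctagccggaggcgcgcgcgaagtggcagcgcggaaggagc
Cdk2 promoter: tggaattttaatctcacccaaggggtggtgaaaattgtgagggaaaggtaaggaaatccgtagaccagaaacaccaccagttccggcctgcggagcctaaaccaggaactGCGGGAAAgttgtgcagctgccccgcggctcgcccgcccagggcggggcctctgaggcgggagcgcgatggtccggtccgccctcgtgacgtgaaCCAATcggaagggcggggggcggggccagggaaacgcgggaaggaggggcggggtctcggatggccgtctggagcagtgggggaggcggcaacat
The first 3 sequences belong to Ccnb2 (chr9:70421505-70421804, minus strand), Cenpe (chr3:135212313-135212612, plus strand) and Ccnb1 (chr13:100786437-100786736, minus strand). They hold 3, 1 and 2 CCAAT boxes and no E2F match, and the Ccnb2 window also holds 2 CHR matches. The last 3 belong to Mcm3 (chr1:20820263-20820562, minus strand), Mcm6 (chr1:128359656-128359955, minus strand) and Cdk2 (chr10:128705002-128705301, minus strand). These hold 2, 3 and 1 E2F matches beside 3, 2 and 1 CCAAT boxes, and none holds the CHR letters. Over all members with a window, the CHR letters were in 12 of 16 windows (75%) of genes with mitotic roles, in 1 of 14 windows (7.14%) of genes with replication roles, and in 17.9% of all 32851 promoter windows of the table. E2F letters were in 1 of 16 mitotic windows (6.25%), 6 of 14 replication windows (42.9%) and 2.26% of all windows. The CCAAT box, a short and frequent motif, was in 93.8%, 78.6% and 37.4% of these windows. These matches are letters found in a fixed window, not measured binding, and no test was made of their shares.

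On each array between 46.9% and 49.8% of 59305 non-control spots were well above background and no spot was saturated, and 55 to 59 of the 66 spots for the members were. The 3 probes for Macroh2a1, the gene targeted by the siRNA, differed by -0.99, -1.42 and -1.11 (log2, macroH2A1.1 siRNA minus control siRNA, limma adjusted p from 0.0233 to 0.0335 with the replicate block and from 0.0538 to 0.138 without it), with no overlap of the groups. All 8 arrays lay on 1 slide, with replicates 1 and 2 of both groups in the first row and replicates 3 and 4 in the second row. Same-numbered samples of the groups sat side by side and their deviations from the group mean correlated at 0.61, 0.55, 0.66 and 0.41, against at most -0.03 for other numbers. The replicate numbers were therefore taken to pair the samples, while a shared culture and a shared place on the slide cannot be told apart. In RNA from whole cultures, fewer dividing cells and less of a transcript per cell cannot be told apart either.

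The first question was whether macroH2A1.1 siRNA moved the proliferation genes. No member passed the threshold (limma, Benjamini-Hochberg adjusted p under 0.05 over all 13824 genes) in either direction, 0 of 44 without pairing and 0 of 44 with the replicate number as a block. Over all genes the corresponding shares were 0.0217% (3 genes) and 7.96% (1101 genes). At an unadjusted p under 0.05, 0 members passed without the block and 3 passed with it, against 1666 and 3838 of all genes. The median difference over the 44 members was -0.02 on the log2 scale, beside 0.00 for all genes, with 22 members above and 22 below 0. Single differences ranged from -0.33 for Gins2 to 0.49 for E2f2. With the block, the 95% interval of the difference lay within a 2-fold change for all 44 members and within a 1.5-fold change for 37 of them. Smaller shifts did not pass after adjustment. Without the block the intervals were wider, and some reached past a 2-fold change, as for Mki67 (-1.39 to 1.31) and Tk1 (-1.52 to 2.09). Others did not, as for Pcna (-0.24 to 0.36). The limit on larger shifts thus rests on the pairing by replicate number, which the labels do not state. The siRNA groups did not overlap for 0 of 44 members, as for 7.88% of all genes, and no member passed in any of the 33 other settings tried. Many of these settings add little, because they called few genes at all. Without the replicate block they called 0 to 11 genes over all. With it, 0 genes passed without pair 1, without pair 3 or with no filter.

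**Figure D1:**
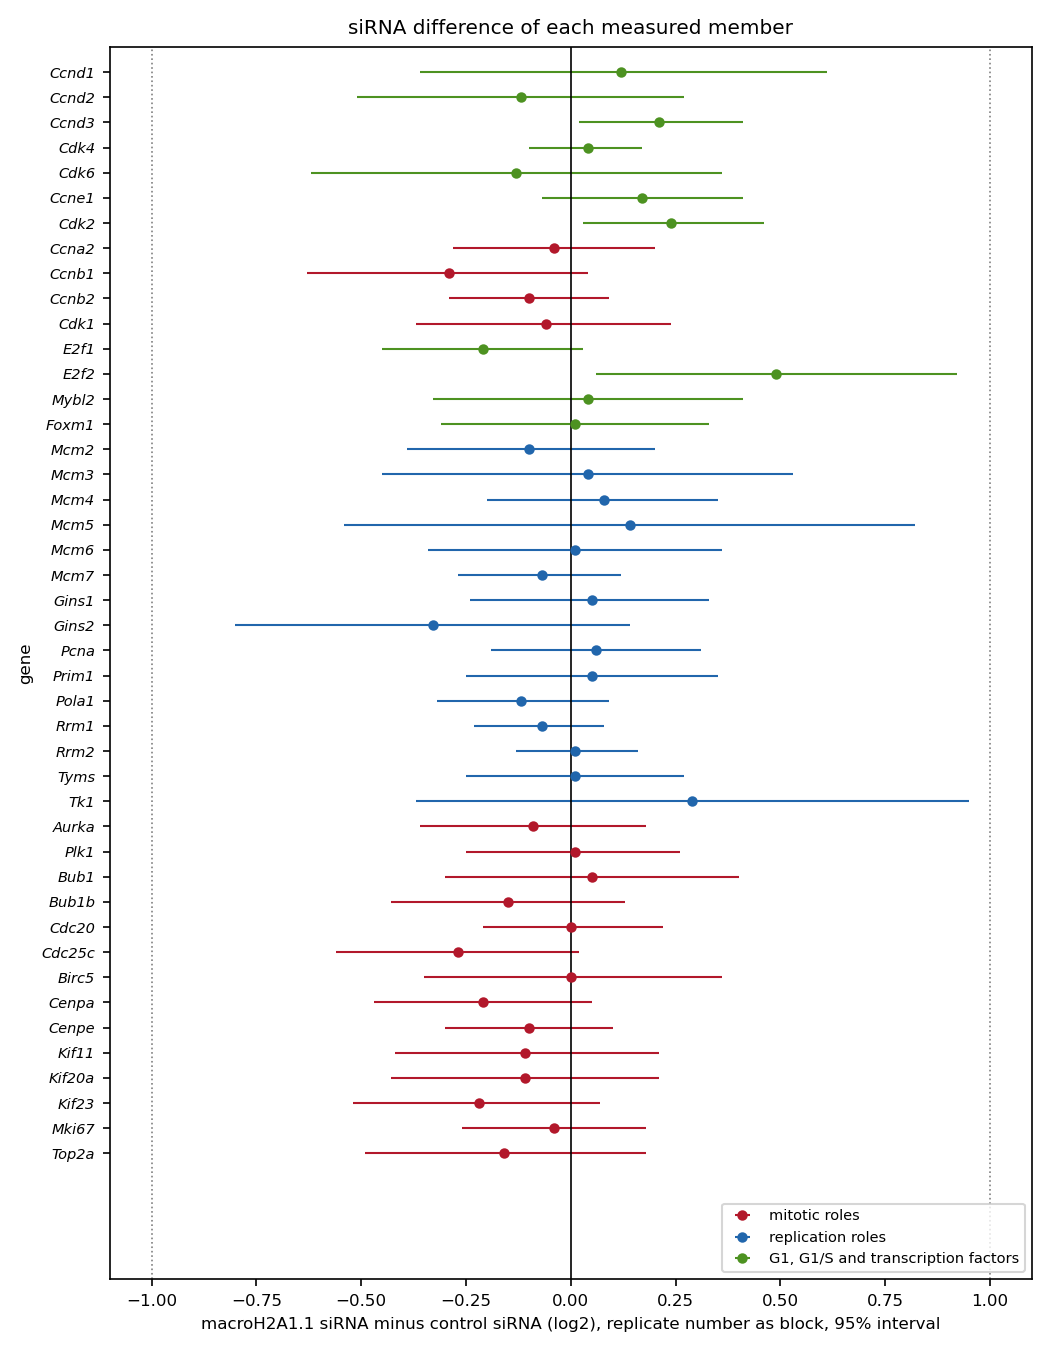
Each row is a measured member, ordered by role. The x axis gives its level in macroH2A1.1 siRNA minus control siRNA samples (log2), points are estimates with the replicate number as a block (n = 4 pairs) and bars are 95% intervals. Dotted lines mark a 2-fold change, which no interval with the block reaches. The intervals of E2f2, Cdk2 and Ccnd3 lie above 0 before adjustment for multiple tests. Intervals without the block were wider and are not drawn.

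The members differed between the replicate numbers. With the siRNA group in the model, 33 of 44 members passed the moderated F test for replicate number (limma), where 21.5% of all genes did. The median range over the 4 replicate numbers was 1.66 for the members and 0.38 for all genes (log2). Each number was compared with the mean of the other 3. Here and below, a gene is called at an adjusted p under 0.05 (limma). Replicate 2 was called above for 25 of 44 members (10.2% of all genes) and below for 1, Cdk2 (7.54%). Replicate 3 was called below for 31 of 44 (8.48%), and replicate 4 was called above for 1, Mcm4 (0.535%). These are counts of calls, not of signs. Over the 44 members the replicate 2 difference ran from -0.49 to 1.97 (median 0.93). That of replicate 4 ran from -0.63 to 1.40 (median 0.16). The median level of the 44 members was -0.23, 0.83, -0.78 and 0.04 in macroH2A1.1 siRNA samples 1 to 4, against -0.05, 0.54, -0.73 and 0.24 in control siRNA samples 1 to 4, each relative to the gene's mean over the 8 arrays. The highest sample had the same replicate number in both groups for 34 of 44 members (55.2% of all genes) and the lowest for 37 (55.9%), and a difference between the groups in these patterns was not tested. By the median level replicate 2 was the highest and replicate 3 the lowest sample in each group. The count called above in replicate 2 lay between 17 and 23 when any single array was left out. The 31 members called below in replicate 3 became 0 without the replicate 3 array of either group. Without replicate 1 or 3 of either group the F test passed 19 to 21 members.

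**Figure D2:**
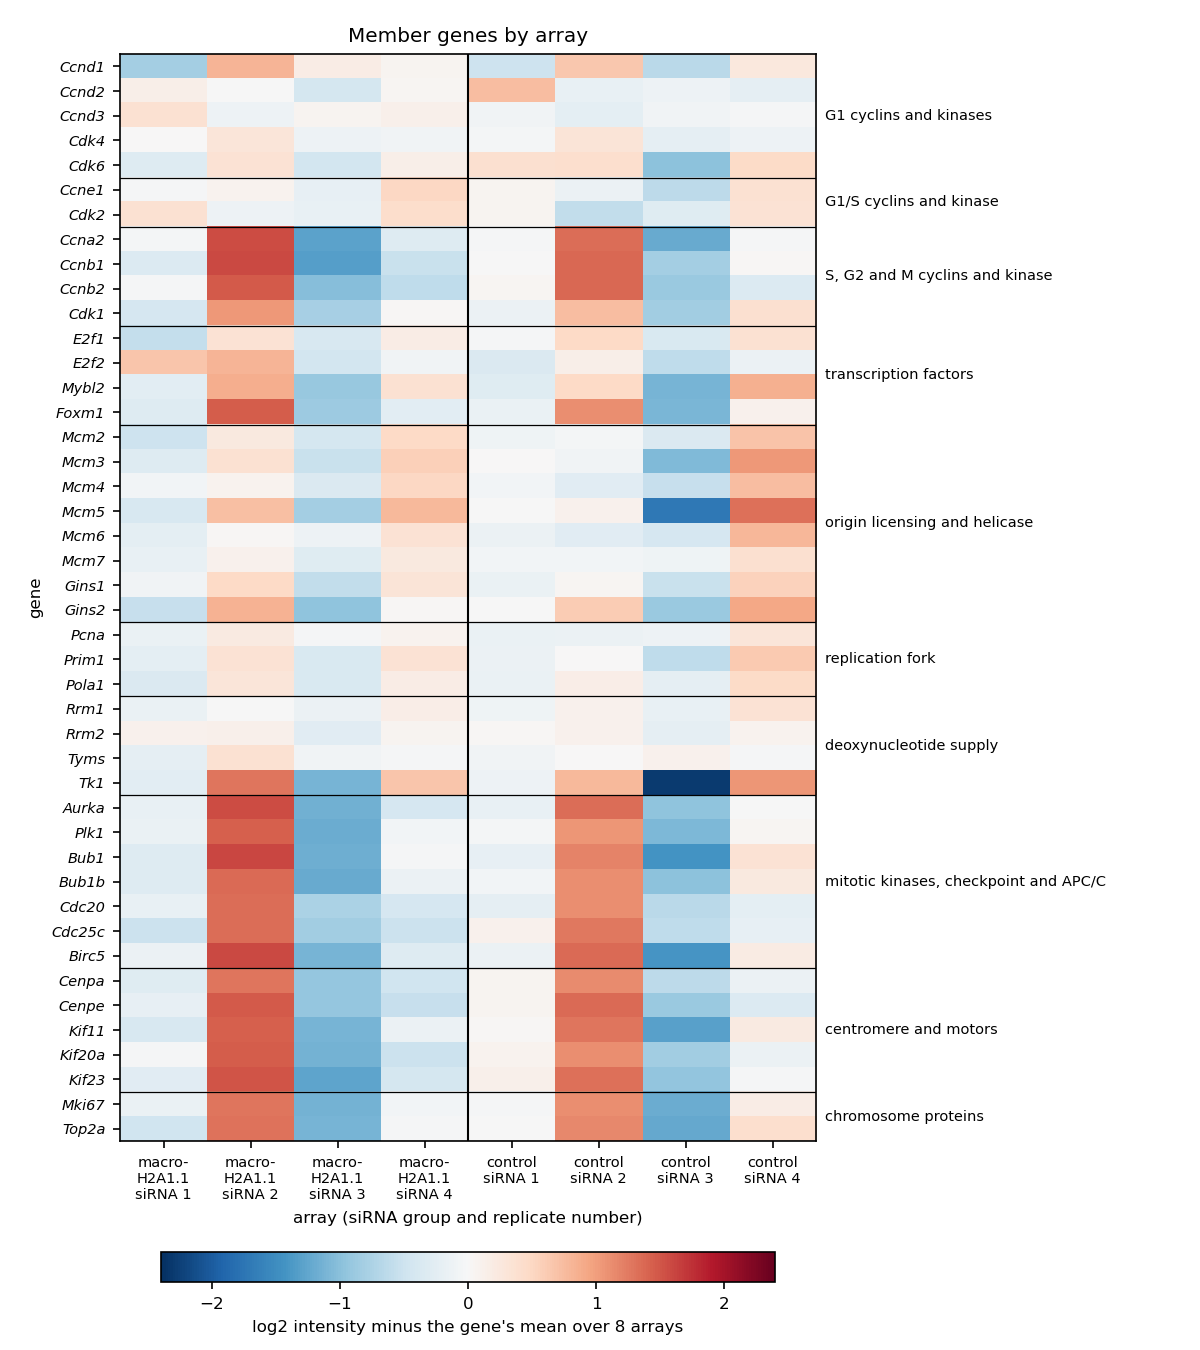
Rows are the 44 measured members grouped by role and columns are the 8 arrays, with the 4 macroH2A1.1 siRNA samples left of the 4 control siRNA samples. Colour gives the log2 intensity minus the gene's mean over the 8 arrays. Replicate 2 is red and replicate 3 blue across the mitotic rows of both groups, while the Mcm rows are reddest in replicate 4.

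Replicates 1 and 2 share an array row, as do replicates 3 and 4. Replicate 2 was called above replicate 1 for 22 of 44 members (7.23% of all genes), and replicate 4 above replicate 3 for 23 of 44 (3.16%). Replicate 4 was called below replicate 2 for 19 of 44 members (6.46%) and above it for 1, Cdk2 (3.6%). These pairwise contrasts were added after the replicate differences had been seen. They rest on single arrays in several cases: the first count became 0 without either replicate 1 array and 1 once macroH2A1.1 siRNA replicate 2 was left out. The second became 0 without replicate 1 or 3 of either group and without control siRNA replicate 4, and 6 when macroH2A1.1 siRNA replicate 4 was dropped. The third became 7 and 5 without macroH2A1.1 siRNA replicates 2 and 4.

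**Figure D3:**
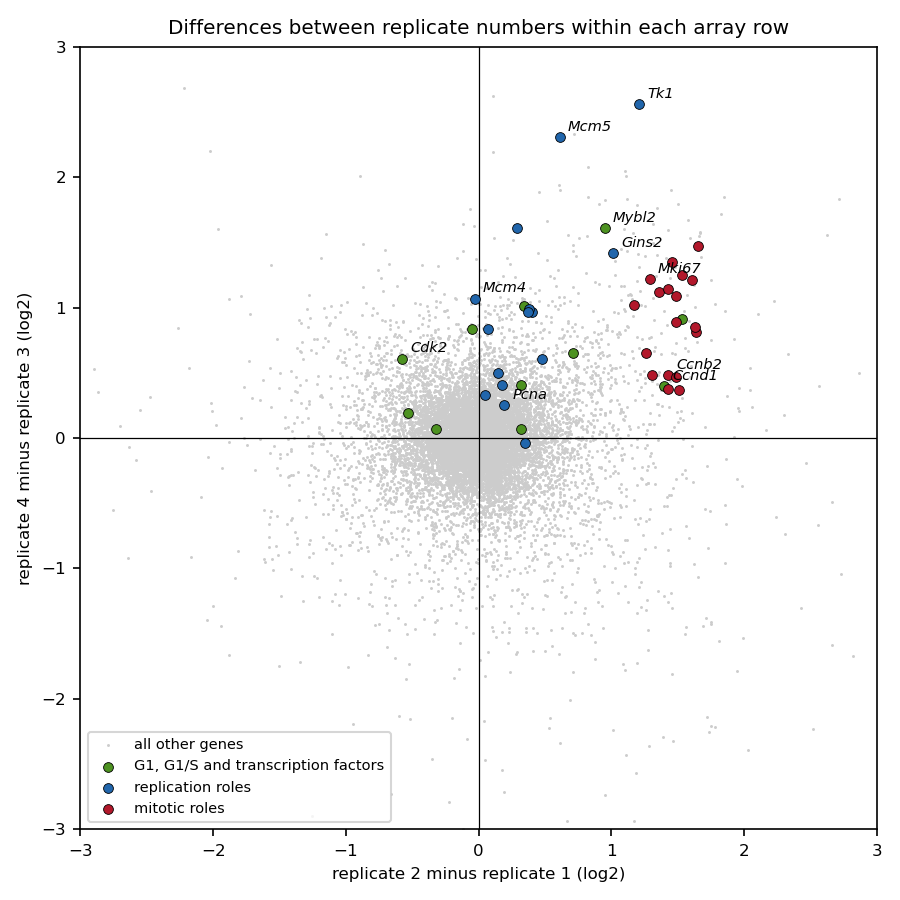
Each point is a gene, with replicate 2 minus replicate 1 on the x axis and replicate 4 minus replicate 3 on the y axis (log2, siRNA group in the model). The axes use different arrays, and 41 other genes lie outside the limits of 3. Members with mitotic roles lie to the right (median 1.48 on the x axis and 0.96 on the y axis), and members with replication roles lie higher than they lie to the right (median 0.35 and 0.97).

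The members fell into groups by role. The 18 measured members that act in S phase to mitosis (the S, G2 and M cyclins and Cdk1, the mitotic kinases and checkpoint genes, the centromere and motor genes, and Mki67 with Top2a) were pooled after their values had been seen. All 18 passed the F test (21.5% of all genes). All 18 were higher in replicate 2 (median 1.77, range 1.19 to 1.97) and lower in replicate 3 (median -1.44, range -1.75 to -0.93). Each of the 18 had its highest level in replicate 2 and its lowest in replicate 3 in both groups, as 17.6% and 17.4% of all genes did. In replicate 4, 17 of the 18 were called lower than in replicate 2 (6.46% of all genes). The 15 measured members with replication roles (licensing and helicase, fork, deoxynucleotide supply) passed the F test in 9 cases (21.5% of all genes). The median of the 15 was 0.19 in replicate 2 and 0.65 in replicate 4. Of these, 7 were highest in replicate 4 in both groups, as 9.0% of all genes were. None of the 15 was called lower in replicate 4 than in replicate 2, with differences from -0.23 to 0.70 (median 0.20).

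**Figure D4:**
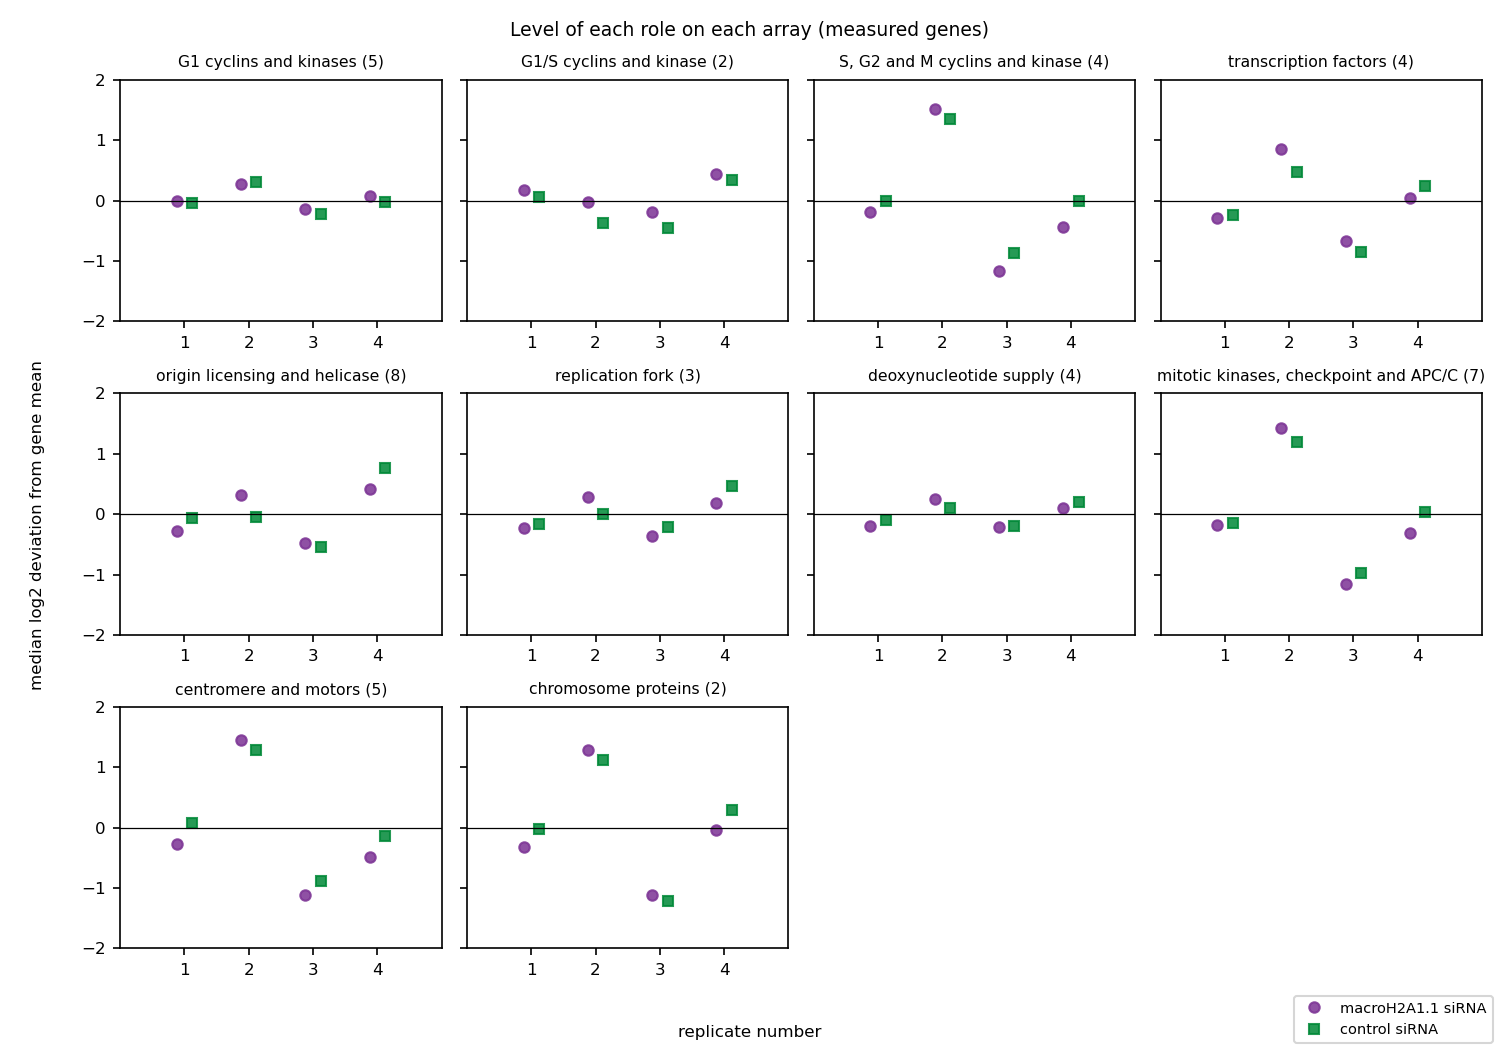
Each panel is a role with the number of measured genes in brackets. The x axis is the replicate number and the y axis the median log2 deviation of its genes from their mean over 8 arrays, with circles for macroH2A1.1 siRNA left of squares for control siRNA. The mitotic roles peak in replicate 2 (1.29 to 1.52 with macroH2A1.1 siRNA, 1.13 to 1.36 with control siRNA), and origin licensing and helicase genes peak in replicate 4 (0.42 and 0.76).

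The G1 cyclins and their kinases varied gene by gene. Ccnd1, the cyclin that responds to growth factors, read 2.17, 3.80, 3.16 and 3.06 in macroH2A1.1 siRNA samples 1 to 4, against 2.48, 3.64, 2.34 and 3.24 in control siRNA samples 1 to 4. Cdk4, its kinase partner, read 5.50, 5.78, 5.36 and 5.40 with macroH2A1.1 siRNA, against 5.45, 5.80, 5.27 and 5.37 with control siRNA. Both were highest in replicate 2 of each group, by 0.98 (SE 0.22, limma adjusted p = 0.0385) for Ccnd1 and by 0.40 (SE 0.06, adjusted p = 0.0166) for Cdk4, and their siRNA groups overlapped. Cdk4 was the only gene of this role past the F test (adjusted p = 0.0354). Ccnd3, the D-type cyclin that rises when myoblasts differentiate, read 7.43, 6.95, 7.13 and 7.20 with macroH2A1.1 siRNA, against 6.99, 6.83, 6.98 and 7.05 with control siRNA. It was higher with macroH2A1.1 siRNA in each of the 4 pairs, by 0.21 (SE 0.08, adjusted p = 0.143 with the block), and did not pass. Its F test for replicate number had an adjusted p of 0.191. Ccnd2 read 1.67, 1.52, 1.09 and 1.57 with macroH2A1.1 siRNA, against 2.26, 1.35, 1.40 and 1.31 with control siRNA, where replicate 1 stood above the rest. Cdk6 read -3.08, -2.43, -3.22 and -2.64 with macroH2A1.1 siRNA, against -2.39, -2.37, -3.76 and -2.32 with control siRNA. Neither passed the F test (adjusted p = 0.154 and 0.0872).

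Cyclin E and Cdk2, which drive entry into S phase, did not share the replicate 2 peak of the mitotic genes. Cdk2 read 1.22, 0.72, 0.67 and 1.26 in macroH2A1.1 siRNA samples 1 to 4, against 0.91, 0.25, 0.56 and 1.19 in control siRNA samples 1 to 4. Ccne1, which encodes cyclin E1, read 1.19, 1.30, 1.02 and 1.72 with macroH2A1.1 siRNA, against 1.29, 1.08, 0.60 and 1.58 with control siRNA. Replicate 4 was the highest sample of both genes in both groups. Cdk2 was lower in replicate 2 than in the other numbers by -0.49 (SE 0.10, limma adjusted p = 0.0296), and both genes passed the F test (adjusted p = 0.0295 for Cdk2 and 0.0374 for Ccne1). Cdk2 was higher with macroH2A1.1 siRNA in all 4 pairs, by 0.24 (SE 0.09), with an adjusted p of 0.145 with the block. The probe of Ccne2, the gene of cyclin E2, was well above background on 0 arrays.

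Of the 4 measured transcription factors, Foxm1, E2f1 and E2f2 were highest in replicate 2 of both groups. Foxm1, which activates G2 and M genes, read -0.96, 0.81, -1.53 and -0.90 in macroH2A1.1 siRNA samples 1 to 4, against -0.81, 0.47, -1.74 and -0.54 in control siRNA samples 1 to 4. It was higher in replicate 2 by 1.72 (SE 0.15, 3.30-fold, limma adjusted p = 0.00446). Mybl2, the B-Myb factor of the MuvB complex, read -0.98, 0.16, -1.62 and -0.35 with macroH2A1.1 siRNA, against -1.01, -0.24, -1.83 and 0.13 with control siRNA. Its top sample was replicate 2 with macroH2A1.1 siRNA and replicate 4 with control siRNA, and replicate 3 was lowest in both. Both genes passed the F test (adjusted p = 0.0106 and 0.0172). E2f1, which activates replication genes, read 0.39, 1.30, 0.57 and 1.13 with macroH2A1.1 siRNA, against 0.92, 1.43, 0.59 and 1.32 with control siRNA, and also passed it (adjusted p = 0.0288). E2f2 had the largest siRNA difference of any member. It read 5.27, 5.42, 4.16 and 4.52 with macroH2A1.1 siRNA, against 4.25, 4.73, 3.99 and 4.45 with control siRNA. The groups overlapped, although each pair was higher with macroH2A1.1 siRNA, and the 0.49 difference (SE 0.17) did not pass with the block (adjusted p = 0.142).

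The licensing and helicase genes form the complex that marks replication origins and later unwinds them. Mcm4 read 2.49, 2.65, 2.21 and 3.05 in macroH2A1.1 siRNA samples 1 to 4, against 2.50, 2.29, 2.0 and 3.30 in control siRNA samples 1 to 4. Mcm2 read -0.16, 0.58, -0.08 and 0.82 with macroH2A1.1 siRNA, against 0.24, 0.30, -0.01 and 1.02 with control siRNA. Mcm6 read 3.86, 4.13, 3.97 and 4.45 with macroH2A1.1 siRNA, against 3.96, 3.83, 3.69 and 4.89 with control siRNA. In all 3 genes replicate 4 was the top sample of each group. Replicate 4 was above the others by 0.81 for Mcm4 (SE 0.13, 1.76-fold, limma adjusted p = 0.0457), and the values for Mcm2 and Mcm6, 0.77 and 0.76, did not pass (adjusted p = 0.0566 and 0.0774). The Mcm4 call was the single call for replicate 4 above the others and was lost when any single array was left out, while other processing gave between 0 and 13 such calls. Mcm5 spanned the widest range of the role, reading -0.54, 0.57, -0.96 and 0.62 with macroH2A1.1 siRNA, against -0.15, -0.05, -1.86 and 1.18 with control siRNA. Of the 8 measured genes of the role, 6 passed the F test (21.5% of all genes) and 6 were called higher in replicate 4 than in replicate 3 (3.16%). In replicate 3, 5 were called lower than in the other numbers (8.48%). Gins2, a subunit of the GINS complex of the active helicase, had the largest siRNA difference of the role. It read -1.50, -0.12, -1.91 and -0.91 with macroH2A1.1 siRNA, against -0.96, -0.33, -1.83 and -0.01 with control siRNA, with overlapping groups and a difference of -0.33 (SE 0.19, adjusted p = 0.320 with the block). Cdc6, which loads the Mcm helicase, was not measured, since its 2 probes were well above background on 3 and 4 of the 8 arrays.

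At the replication fork and in deoxynucleotide supply, 3 of 7 measured genes passed the F test (21.5% of all genes), namely Prim1, Pola1 and Tk1. Pcna, the sliding clamp of the DNA polymerases, read 4.27, 4.64, 4.40 and 4.50 in macroH2A1.1 siRNA samples 1 to 4, against 4.27, 4.29, 4.31 and 4.71 in control siRNA samples 1 to 4. Tyms, which makes thymidylate, read -2.55, -1.96, -2.42 and -2.36 with macroH2A1.1 siRNA, against -2.42, -2.31, -2.23 and -2.36 with control siRNA. These genes had the largest adjusted p of all members in the F test (limma, 0.283 for Pcna and 0.306 for Tyms). The Pcna value rests on a single probe that spans 33 genome bases in the array annotation for 60 letters of sequence. The probe used for Ccne1 spans 24 bases there, and those used for Cenpa and Kif23 span 471 and 241. Pola1, the catalytic subunit of the primase-coupled polymerase, read -0.31, 0.33, -0.33 and 0.22 with macroH2A1.1 siRNA, against -0.13, 0.20, -0.19 and 0.49 with control siRNA, and passed the F test (adjusted p = 0.0336). Prim1, the primase subunit that makes RNA primers, read 1.42, 2.0, 1.28 and 1.99 with macroH2A1.1 siRNA, against 1.5, 1.66, 1.04 and 2.28 with control siRNA. It was lowest in replicate 3 of both groups, and replicate 4 was above replicate 3 by 0.97 (SE 0.17, adjusted p = 0.0404). Tk1, a thymidine kinase whose transcript follows E2F, read 0.24, 1.77, -0.62 and 1.15 with macroH2A1.1 siRNA, against 0.37, 1.27, -1.80 and 1.56 with control siRNA. Both high samples of each group were replicates 2 and 4. Tk1 was lower in replicate 3 by -2.27 (SE 0.31, 4.81-fold, adjusted p = 0.0157), the largest difference of 1 replicate number from the other 3 among the members, and by siRNA it differed by 0.29 (SE 0.26, adjusted p = 0.525 with the block).

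The cyclins of S phase and mitosis and Cdk1 were highest in replicate 2 and lowest in replicate 3 of both groups. Ccna2, cyclin A2, read 0.84, 2.46, -0.40 and 0.57 in macroH2A1.1 siRNA samples 1 to 4, against 0.87, 2.23, -0.33 and 0.87 in control siRNA samples 1 to 4. Ccnb1, cyclin B1, read 0.56, 2.46, -0.43 and 0.35 with macroH2A1.1 siRNA, against 0.88, 2.27, 0.07 and 0.91 with control siRNA. Their kinase Cdk1 read -0.66, 0.79, -1.06 and -0.22 with macroH2A1.1 siRNA, against -0.40, 0.48, -1.09 and 0.12 with control siRNA. Replicate 2 stood above every other sample of its group in all 3 genes. It was higher by 1.94 for Ccna2 (SE 0.11, 3.84-fold, limma adjusted p = 0.00309), 1.97 for Ccnb1 (SE 0.16, adjusted p = 0.00384) and 1.19 for Cdk1 (SE 0.14, adjusted p = 0.00767). Ccnb2, cyclin B2, read 2.15, 3.66, 1.16 and 1.58 with macroH2A1.1 siRNA, against 2.23, 3.57, 1.29 and 1.85 with control siRNA, and had the largest drop between replicates 2 and 4, where replicate 4 was lower by -1.90 (SE 0.11, adjusted p = 0.00485). Ccnb1 had the largest siRNA difference of the role, -0.29 (SE 0.13, adjusted p = 0.227 with the block), and was lower with macroH2A1.1 siRNA in 3 of 4 pairs.

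The mitotic kinases and checkpoint genes passed the F test in 7 of 7 measured cases (21.5% of all genes). Aurka, the spindle pole kinase, read 0.51, 2.26, -0.45 and 0.29 in macroH2A1.1 siRNA samples 1 to 4, against 0.52, 2.03, -0.27 and 0.68 in control siRNA samples 1 to 4. Cdc20, the activator of the anaphase-promoting complex, read 1.91, 3.44, 1.34 and 1.69 with macroH2A1.1 siRNA, against 1.87, 3.20, 1.45 and 1.85 with control siRNA. Cdc25c, the phosphatase that activates Cdk1, read -3.33, -1.48, -3.65 and -3.33 with macroH2A1.1 siRNA, against -2.71, -1.55, -3.43 and -3.01 with control siRNA. In each of them the replicate 2 sample stood above every other sample of its group. The excess of replicate 2 was 1.93 for Aurka (SE 0.13, limma adjusted p = 0.0031), 1.63 for Cdc20 (SE 0.10, adjusted p = 0.00309) and 1.73 for Cdc25c (SE 0.13, adjusted p = 0.00384). For Plk1, Bub1, Bub1b and Birc5 it lay between 1.65 and 1.96. Cdc25c had the largest siRNA difference of the role, -0.27 (SE 0.12, adjusted p = 0.207 with the block). The probe of Aurkb, the kinase of the chromosomal passenger complex, was well above background on 0 arrays, although Birc5, another member of that complex, was measured.

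At the centromere and among the spindle motors, 5 of 5 measured genes passed the F test (21.5% of all genes). Cenpe, a kinetochore motor, read 1.57, 3.23, 0.83 and 1.20 in macroH2A1.1 siRNA samples 1 to 4, against 1.82, 3.12, 0.87 and 1.43 in control siRNA samples 1 to 4. Kif23, a motor of the central spindle, read -2.23, -0.44, -3.23 and -2.38 with macroH2A1.1 siRNA, against -1.84, -0.64, -2.91 and -1.98 with control siRNA. Replicate 2 was the top and replicate 3 the bottom sample of both groups. Cenpe was higher in replicate 2 by 1.89 (SE 0.09, 3.72-fold, limma adjusted p = 0.00309) and lower in replicate 4 than in the other numbers by -0.59 (adjusted p = 0.0461), a call it shared with Ccnb2 alone among the members (1.82% of all genes). Neither gene had that call with quantile normalization, median centring or no filter, or without any single array other than control siRNA replicate 2. Kif23 had the largest siRNA difference of the role, -0.22 (SE 0.12, adjusted p = 0.284 with the block). All 5 genes were on the lower side with macroH2A1.1 siRNA (-0.22 to -0.10) and none passed. Cenpf was well above background on 1 array and was not measured.

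Mki67, the antigen used to score dividing cells, and Top2a, the topoisomerase that untangles chromosomes, complete the set. Mki67 (chr7:142881591-142881650, minus strand, mm9) read 1.78, 3.23, 0.82 and 1.88 in macroH2A1.1 siRNA samples 1 to 4, against 1.92, 3.06, 0.75 and 2.13 in control siRNA samples 1 to 4. Top2a (chr11:98855522-98855581, minus strand, mm9) read -0.74, 1.03, -1.37 and -0.29 with macroH2A1.1 siRNA, against -0.28, 0.89, -1.49 and 0.14 with control siRNA. In both genes replicate 2 was the high sample, replicate 3 the low sample, and replicates 1 and 4 lay between them. Mki67 was 3.03-fold higher in replicate 2 than in the other numbers (SE 0.10 on the log2 scale, limma adjusted p = 0.00309) and 2.93-fold lower in replicate 3 (adjusted p = 0.00909). By siRNA it averaged 1.93 ± 0.99 with macroH2A1.1 siRNA and 1.96 ± 0.95 with control siRNA (SD, n = 4), a difference of -0.04 with a 95% interval of -0.26 to 0.18 with the block. Top2a differed by -0.16 (interval -0.49 to 0.18 with the block). Without the block the intervals were -1.39 to 1.31 for Mki67 and -1.55 to 1.24 for Top2a.

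Several members had more than 1 kept probe, which gives a repeat within the same arrays. The second Mki67 probe read 1.65, 2.94, 0.73 and 1.61 in macroH2A1.1 siRNA samples 1 to 4, against 1.68, 2.92, 0.53 and 1.96 in control siRNA samples 1 to 4. The 3 Birc5 probes put replicate 2 above the other numbers by 1.91, 1.83 and 1.96, and the 3 Ccnb1 probes by 1.72, 1.97 and 1.57. The probes of each of these genes thus put replicate 2 highest. The siRNA difference by probe was 0.04 and -0.04 for Mybl2, 0.04, 0.00 and -0.01 for Cdk4, and 0.00, -0.12 and -0.06 for Birc5. For the 3 Ccnb1 probes it was -0.50, -0.29 and -0.25, and the probe with -0.29 stands for the gene. Cdk1 had 2 further probes that were well above background on 2 and 0 arrays and were not used.

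Cell cycle genes that are no members were read in a list of mitosis genes and a list of DNA replication genes. Of 58 other mitosis genes 50 were measured, and 47 of them passed the F test (21.5% of all genes). In replicate 2, 47 were called higher (10.2%), and in replicate 3, 46 were called lower (8.48%). Kif18b, a spindle motor, read -3.31, -1.49, -4.45 and -3.03 in macroH2A1.1 siRNA samples 1 to 4, against -2.91, -1.40, -4.13 and -2.46 in control siRNA samples 1 to 4. Nusap1, Spc24 and Kif4 were higher in replicate 2 by 1.79, 1.29 and 1.92. Of 44 other DNA replication genes 41 were measured, and 21 passed the F test. In replicate 2, 6 were called higher (10.2% of all genes) and 3 lower (7.54%), shares near those of all genes. In replicate 3, 15 were called lower (8.48%), and in replicate 4, 6 were called higher (0.535%). Lig1, the ligase that joins Okazaki fragments, read 1.38, 2.13, 1.34 and 2.27 with macroH2A1.1 siRNA, against 1.62, 2.07, 1.37 and 2.61 with control siRNA. Its top sample was replicate 4 in each group, as for 18 of the 41 genes (9.0% of all genes). Rpa2, a subunit of the protein that coats single-stranded DNA, differed from the other numbers by -0.63 in replicate 2 and 0.62 in replicate 4. For Pole and Prim2, subunits of a DNA polymerase and of primase, these values were 0.91 and 1.02, and 0.53 and 0.28. No gene of either list passed in the siRNA comparison, with or without the block.

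**Figure D5:**
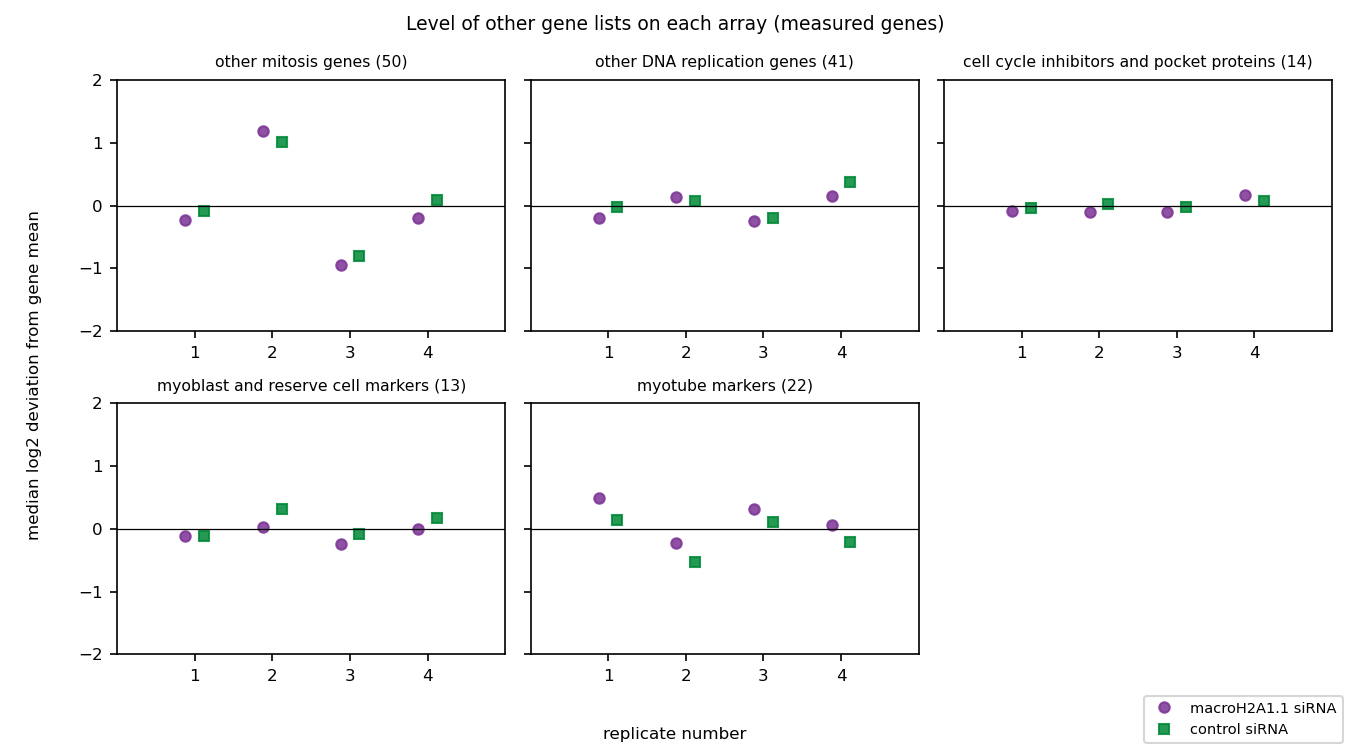
Each panel is a list with its number of measured genes. The x axis is the replicate number and the y axis the median log2 deviation from each gene's mean over 8 arrays, with circles for macroH2A1.1 siRNA left of squares for control siRNA. Other mitosis genes peak in replicate 2 (1.19 and 1.01), and myotube markers are lowest there (-0.23 and -0.53). Other DNA replication genes are highest in replicate 4 (0.15 with macroH2A1.1 siRNA, 0.38 with control siRNA). With macroH2A1.1 siRNA this is nearly level with replicate 2 (0.14).

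Inhibitors of the cycle and markers of cell state were read beside the members. Of 16 genes for cell cycle inhibitors and pocket proteins 14 were measured, 0 passed in the siRNA comparison and 3 passed the F test, a share close to the 21.5% of all genes. These were Cdkn2d, an inhibitor of Cdk4 and Cdk6 that was higher in replicate 2 by 0.48, its relative Cdkn2c and the pocket protein gene Rbl1. All 22 myotube markers were measured, while Pax7 and Myf5, markers of muscle stem cells and myoblasts, were not well above background. Myotube markers were called lower in replicate 2 in 14 of 22 cases (7.54% of all genes) and higher in replicate 1 in 8 (3.05%). The differences of the 22 ran from -1.05 to -0.12 in replicate 2 and from 0.07 to 1.15 in replicate 1. Myh8, a developmental myosin, read 7.92, 6.89, 7.94 and 6.79 in macroH2A1.1 siRNA samples 1 to 4, against 7.56, 6.15, 7.18 and 6.19 in control siRNA samples 1 to 4. The median level of the 22 markers was 0.49, -0.23, 0.32 and 0.06 with macroH2A1.1 siRNA, against 0.14, -0.53, 0.11 and -0.21 with control siRNA. The replicate with the highest mitotic level was thus the lowest for myotube markers in each group. The other end did not mirror this. Mitotic roles were lowest in replicate 3 (-1.12 and -0.96), while the median of myotube markers was highest in replicate 1. Of the 22 markers, 11 were highest in replicate 1 of both groups (13.6% of all genes) and 2 in replicate 3 (15.1%). The part of cell state in the replicate differences was not tested. Of 13 measured markers of myoblasts and reserve cells, 10 passed the F test (21.5% of all genes). In replicate 2, 5 were called higher (10.2%) and 1 lower (7.54%), with differences from -0.91 to 0.97. Their median level was -0.12, 0.03, -0.24 and 0 with macroH2A1.1 siRNA, against -0.11, 0.32, -0.08 and 0.17 with control siRNA. Replicate 2 was highest in each group, though close to replicate 4 with macroH2A1.1 siRNA. By siRNA, 8 of 22 myotube markers were called higher with the block (4.09% of all genes) and 0 without it. Of the 22 differences, 21 were above 0 and 1 was below. The 13 measured markers of myoblasts and reserve cells differed by -0.63 to 0.76, with 5 above 0 and 8 below. Of the 13, Cd34 (-0.63), Spry1 (-0.53) and Hes1 (-0.36) were called lower with the block (3.88% of all genes). Itga7 was called higher (0.34), and 0 passed without the block. With the block no gene at all passed without pair 1, without pair 3 or with no filter, so these calls were lost there too. Of the markers of other cell types 8 of 10 for fibroblasts, 6 of 9 for macrophages and leukocytes, 3 of 6 for endothelium and 1 of 6 for adipocytes were measured. Their median levels did not peak in replicate 2 in either group for the first 3 of these lists.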

How the data were processed

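Array intensity values, per the file headers, come from the authors' Agilent Feature Extraction (version 10.7.3.1) run on 1-colour Cy3 arrays and carry mm9 coordinates. Its processed signal, already background-subtracted, was put on a log2 scale and each array was shifted so that its 75th percentile is 0. Control and outlier spots were dropped, repeated spots averaged, and a probe kept when all 4 arrays of either group held it well above background (24988 of 55681). The kept probe with the highest mean stands for its gene. Names came from accessions (27598 probes), current symbols (3493), older symbols (393) or the file itself (1793), and 22404 probes had none. The deposited series table is read as log2 because each column follows the log2 signal of its array; it was an alternative only, with 0 columns of no sample.

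Fits used limma 3.58.1 under R 4.3.3, two-sided, with Benjamini-Hochberg adjustment across all 13824 genes and a threshold of 0.05. The siRNA comparison was fitted without and with replicate number as a block, and replicate numbers were compared with the siRNA group in the model. The scripts were tested on simulated data. Members and lists were chosen with earlier results of these data known. Named genes are fixed anchors plus, by role or list, those with the largest siRNA difference or the smallest p for replicate number, most but not all of them. Files were read and figures drawn in Python 3.11.15 (pandas 2.3.3, matplotlib 3.10.9). Alternatives were normexp (offset 50), quantile normalization, centring on the median, the authors' deposited log2 series values, both no filter and a stricter one, averaging a gene's probes, trended robust eBayes, array row or column as a block, and arrays left out. The number of arrays limits the precision.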

Additional observations from a re-analysis of the deposited data

Results flagged for a closer look

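In 6 of 88 groups of 4 samples (44 members in 2 groups), the extreme sample's gap to its nearest neighbour, divided by the group's range, was above Dixon's 95% critical value, which chance exceeds in about 1 of 20 groups. With macroH2A1.1 siRNA, Cdc25c was high in replicate 2 (-1.48, ratio 0.853) and Rrm2, a subunit of ribonucleotide reductase, was low in replicate 3 (4.41, ratio 0.854). With control siRNA, Cdk6 was low in replicate 3 (-3.76, ratio 0.951), Ccnd2 was high in replicate 1 (2.26, ratio 0.905), and Mcm7 and Pcna were high in replicate 4 (3.34, ratio 0.898, and 4.71, ratio 0.909). For all of these genes but Pcna, the other siRNA group had the same replicate number at that extreme.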

How the results depend on the processing

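Between the siRNA groups 0 members passed in all 33 other settings, while 39 of 44 changed sign in at least 1, and their median difference ran from -0.35 to 0.20 over arrays left out singly. Over all genes the 3 calls became 1 with median centring, 0 to 11 with an array left out, 10 with array row as a block, 7 with array column as a random block, 0 within either row and 1101 with the replicate block. With the replicate block the count was 1898 (normexp), 1053 (quantile), 795 (median centring), 1721 (series values), 1348 (stricter filter), 934 (mean of probes), 2052 (trended eBayes), 0 (no filter), and 0, 134, 0 and 580 without pairs 1 to 4. The replicate block also took myoblast and reserve cell markers to 4 and myotube markers to 8 calls, each 0 without it. It changed no member's call. For replicate number, the 33 members past the F test became 0 with no filter, 19 to 26 with an array left out, and 20 and 19 without both arrays of number 2 and 3. The 2978 genes past it became 0 with no filter, 4950 with trended eBayes, 698 to 1920 with an array left out, and 1302, 674 and 1047 without both arrays of number 1, 2 and 3. Replicate 2 above the others held 17 to 28 members in all settings, and below them 0 with median centring, with no filter, with arrays left out (0 to 1) or without both arrays of number 1 or 4, and 2 with trended eBayes. Replicate 3 below the others became 13 with no filter and 0 to 29 with an array left out. Replicate 4 above the others became 13 (normexp), 10 (series values), 11 (trended eBayes), 3 (stricter filter) and 0 (quantile, median centring, no filter, mean of probes, any array left out, or both arrays of number 1, 2 or 3). Below them, 2 became 0 (quantile, median centring, no filter, both arrays of number 1 or 2 left out), 1 (mean of probes) and 0 to 2 with an array left out. Replicate 1 gained 1 member above (both arrays of number 2 left out) and 1 below (normexp, series values, trended eBayes, both arrays of number 3 left out, and 0 to 1 with an array left out). Of contrasts added after seeing the data, 2 above 1 (22) became 0 with no filter and 0 to 22 with an array left out. For 4 above 3 (23) these were 0 and 0 to 17, with 15 by median centring, 35 by trended eBayes and 0 without both arrays of number 1. For 4 below 2 (19) they were 2 and 5 to 18. For 4 above 2 (1) they were 0 and 0 to 1, with 3 (normexp, series values, trended eBayes), 2 (quantile, stricter filter) and 0 without both arrays of number 1. Fewer arrays leave fewer degrees of freedom; the cause of the other shifts was not tested. Signal limits 4 members, which were too near background to be measured.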

Other observations

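Pairs of samples with the same number differed in the sign of the members' median difference. The median of macroH2A1.1 siRNA minus control siRNA over the 44 members was -0.13, 0.22, 0.04 and -0.28 (log2) in pairs 1 to 4, beside 0.03, -0.01, -0.03 and 0.01 over all genes. For the 18 members with mitotic roles it was -0.19, 0.21, -0.11 and -0.34, and for the 15 with replication roles -0.11, 0.34, 0.05 and -0.25. The siRNA group with the higher level thus differed from pair to pair, and no direction was shared by all 4 pairs for the members as a whole.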
